A study of Drosophila melanogaster with 159 samples.

Results

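RNA levels in old male fruit flies (Drosophila melanogaster) of 25 and 30 d after eclosion were compared with those in young males of 3 to 15 d. The comparison took 8 of the 159 arrays of a series that followed the fly through its life cycle. The old group held 4 arrays, replicates 1 and 2 at 25 d and at 30 d, and the young group held replicate 2 at each of 3, 5, 10 and 15 d. Arrays were chosen by label and slide number alone: both groups lay on slides of the same number form, and males within 24 h of eclosion were left out. The young group starts at 3 d, so late maturation may still be part of the contrast, and its share was not tested. All these flies were Canton S wild type, were aged at 25 °C in cultures of both sexes, and were sorted by sex after freezing. Each array set poly(A)+ RNA of whole males against a common reference RNA, so a value is a log2 ratio of the sample to that reference, centred on the median of its array. In whole flies, fewer cells of a type and less RNA per cell cannot be told apart. The labels do not say whether arrays of a group came from separate collections, so each p-value speaks of the spread among these arrays and that spread may be technical.

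Adult Drosophila tissues are largely post-mitotic, with dividing cells mainly in the gonads and the gut. Flight muscle and cuticle finish their growth in the first days of adult life, while the testis goes on making sperm and the accessory gland goes on making seminal fluid. Immune defence rests on antimicrobial peptides made in the fat body under the Toll and Imd pathways, and on blood cells that encapsulate, engulf or melanize. Ageing in the fly is known for shifts in immune, muscle and energy genes, and the lists read here were drawn up for those functions and for the tissues a whole male contains.

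The 8 arrays gave 7798 to 8541 values each of 12588 probes, and 7770 probes had a value on at least 80% of the arrays and were tested. No probe had a value on all 4 old arrays and on no young array, and 0 probes had the opposite pattern. Pairs of old arrays correlated with a median of 0.91 over 6710 probes, pairs of young arrays with 0.89, and pairs of an old and a young array with 0.87. The ranges overlapped, at 0.87 to 0.95, 0.84 to 0.91 and 0.78 to 0.94 in that order. No label of these arrays names the dye of the sample, and ratios are stated only by scanner wavelength, red over green, so sample over reference is a likely direction. Within this set of slides the mean log2 ratio of 9 testis genes was 1.81 to 3.37 in males of both groups and -1.54 to -1.12 in females of the same ages, so the males stood above the females as labelled. The number 24 or 25 stands in brackets in the titles, with no meaning given: it is 25 on all 4 old arrays, 25 at 5 and 15 d and 24 at 3 and 10 d.

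Old males had less RNA of PPO1, a prophenoloxidase of the crystal cells that starts melanization, and more of Mec2, a gene of the stomatin family whose relative in Caenorhabditis elegans serves touch sensation. These were the named genes that passed the test between the windows (limma, adjusted p under 0.05). PPO1 had log2 ratios of -2.23 and -2.18 at 25 d and -2.17 and -2.17 at 30 d in old males, against -0.37, -0.58, -0.89 and -1.08 at 3, 5, 10 and 15 d in young males. The 4 old arrays lay within 0.03 (SD) of each other and below every young array, and the young arrays were lower with each age. PPO1 fell by 1.46 ± 0.19 (SE) on the log2 scale, a level 2.74-fold higher in young males (limma, adjusted p = 0.0278). Mec2 had 1.50 and 2.32 at 25 d and 2.24 and 2.99 at 30 d in old males, against -0.13, 0.00, 0.41 and 0.44 in young males of 3 to 15 d. Every old array was above every young array. Mec2 rose by 2.08 ± 0.29 (SE), or 4.23-fold (limma, adjusted p = 0.0383), and a second probe of the gene differed by 1.69.

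In all, 5 of 7770 probes passed (0.0644%). The 3 higher in old males made up 0.0386% of those tested and the 2 lower 0.0257%. The other 3 had no gene name in the tables used: the log2 difference was 2.03 and 1.39 for those higher in old males and -2.69 for the lower. At an unadjusted p under 0.05, 474 probes (6.1%) were higher and 579 (7.45%) lower in old males. In 300 probes (3.86%) all old arrays lay above all young arrays, and in 411 (5.29%) below. Over 2-fold differences were seen in 109 probes higher and 82 probes lower in old males. With the 4 arrays that carry 25 in brackets on the old side and the 2 on the young side, 0 probes passed (limma; 1124 at an unadjusted p under 0.05), and the differences were -1.36 for PPO1 (adjusted p = 0.162) and 2.04 for Mec2 (adjusted p = 0.221). Leaving out 1 array left 0 probes without 25 d replicate 2, 30 d replicate 1, 3 d or 10 d (limma; 706 to 995 at an unadjusted p under 0.05), 1 without 5 d, 3 without 25 d replicate 1, 10 without 30 d replicate 2 and 52 without 15 d. PPO1 lost its call in 6 of these 8 fits and Mec2 in 5.

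The 8 other genes with the smallest p did not pass in this comparison, and their values are given as measured. Scp1, which encodes a calcium-binding protein of the sarcoplasm, had the widest gap. Its log2 ratio was -2.63 and -1.97 at 25 d and -2.04 and -2.79 at 30 d in old males, against 3.15, 2.51, 0.40 and -0.69 at 3, 5, 10 and 15 d in young males. The old arrays were low and close together, and the young arrays spread over almost 4 log2 units with the youngest highest. The difference was -3.70 ± 0.71 (SE), 13.0-fold higher in young males (limma, adjusted p = 0.0773). Spn88Eb, a serpin gene, had 2.17, 2.07, 2.59 and 2.07 in old males, against -0.43, -0.48, 0.01 and 1.24 in young males. The groups did not overlap, the young array nearest to the old ones was that of 15 d, and the difference was 2.14 ± 0.35 (limma, adjusted p = 0.0535). CG8560, a predicted metallocarboxypeptidase gene, had 0.30, 0.60, -0.12 and -0.42 in old males, against 2.13, 2.35, 2.39 and 1.21 in young males. Here the arrays of 30 d were the lowest of all and the difference was -1.93 ± 0.30 (limma, adjusted p = 0.0535). The remaining genes differed by 1.54 (CG30281), 1.40 (Gagr, a domesticated retroviral gag gene), 1.31 (CG4716), -1.22 (CG3092) and -1.03 (CG30008), with adjusted p between 0.0501 and 0.11.

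**Figure D1:**
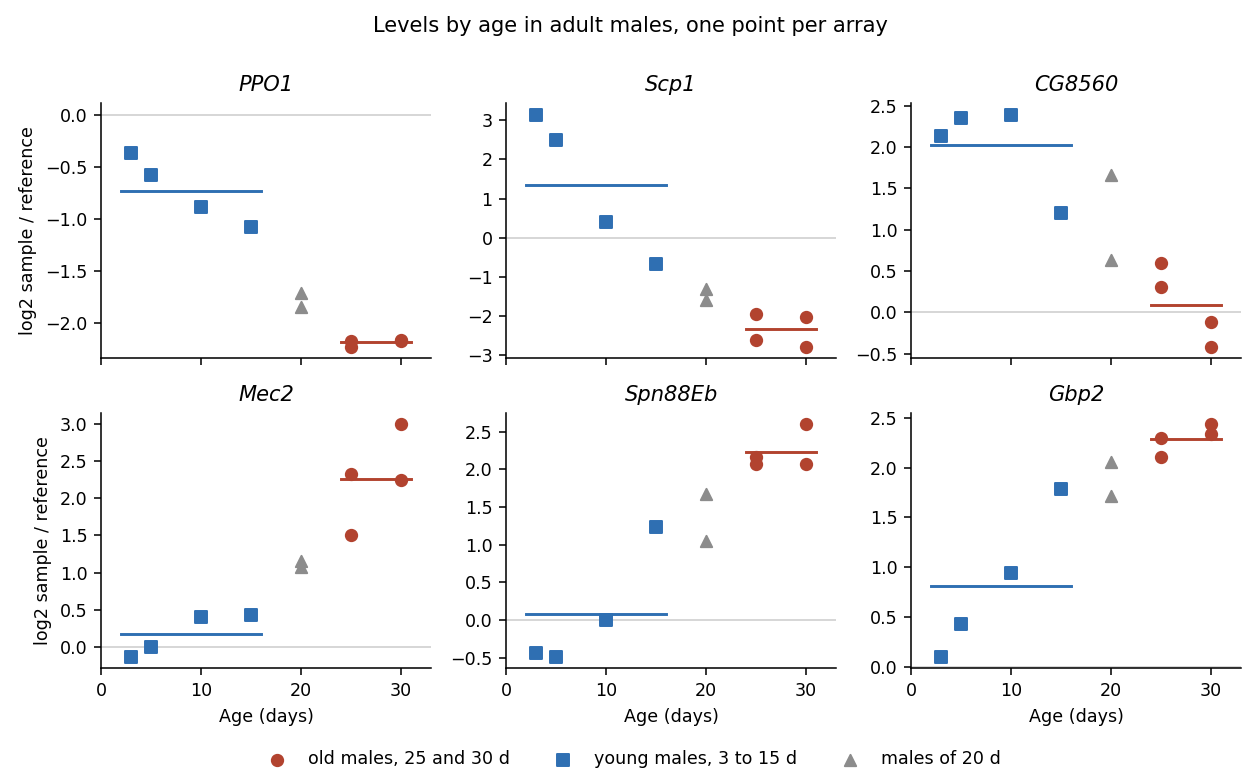
Log2 ratio to the reference (vertical) by age in days (horizontal) for 6 genes, 1 point per array, with bars at the means of the old and the young group and grey triangles for 20 d. PPO1, Scp1 and CG8560 are low at 25 and 30 d, Mec2, Spn88Eb and Gbp2 are high there, and PPO1 at 20 d (-1.72 and -1.85) lies between the groups.

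Males of 20 d, 2 arrays that the choice of groups left out, fell between the windows for most of these genes. PPO1 had -1.72 and -1.85 at 20 d, Mec2 1.07 and 1.16, Scp1 -1.31 and -1.59, and Spn88Eb 1.67 and 1.05. Of the 10 genes of smallest p, 9 had a mean at 20 d between those of old and young males, and CG3092 lay beyond the old mean. These genes were chosen for their gap between the groups, which makes such a place likely. The share among all named genes was not counted, so the 9 say little about the course of change. Against young males, 0 of 7909 probes passed at 20 d (limma; 500, or 6.32%, at an unadjusted p under 0.05), and old males against 20 d also gave 0 (limma; 287, or 3.63%, at an unadjusted p under 0.05). With 2 arrays at 20 d a step at a given age and a steady change cannot be told apart by these tests. Replicate 2 of 20 d shares a slide with replicate 2 of 30 d.

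Scp1, Spn88Eb and Gbp2 differed by over 1 log2 unit between 3 and 15 d, within the young window, and such a difference adds to the spread that the windows are tested against. A slope over all 10 male arrays of 3 to 30 d was therefore read too, as an alternative taken up as a result after its calls had been seen. By this slope 145 of 7913 probes rose with age (1.83%) and 108 fell (1.36%), at an adjusted p under 0.05 in limma. All 5 probes that passed between the windows were among them. Scp1 fell by 4.07 ± 0.38 (SE) per 20 d on the log2 scale (limma, adjusted p = 3.1e-04) and PPO1 by 1.44 ± 0.15 (limma, adjusted p = 7.7e-04). Spn88Eb rose by 2.24 ± 0.21 per 20 d (limma, adjusted p = 3.1e-04), Mec2 by 2.04 ± 0.24 (limma, adjusted p = 0.0015), and the second Mec2 probe by 1.95. Leaving out 1 array gave 69 to 244 probes: 69 without 30 d replicate 1, 91 without 5 d, 124 without 3 d, 146 without 30 d replicate 2 and 159 without 25 d replicate 2. The slopes of PPO1, Mec2, Scp1, Spn88Eb, Gbp2, CG4716, CG8560, CG16926, CG5953, apolpp, Cpr49Ae, pst and scpr-B passed whichever array was left out. Of the slope calls named below, those of Atg3 and Mf were lost in 9 of 10 such fits, those of AkhR, CG7953, hig and obst-A in 8, that of retinin in 7, those of Hex-t2, RpL28 and vir-1 in 6 and those of CG10912, CG16820 and Ssk in 5. The other slope calls named were lost in at most 4. In up to 8 other settings of the slope fit, the call of CG10513 was lost in 6 and that of obst-A in 5. Those of CG16904, Hex-t2, Atg3, Mf and RpL28 were lost in 4, and those of CG16820, Dtg, Mov10, Sgp, Irc and retinin in 3. The other slope calls named were lost in at most 2 of these settings.

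Among named genes read at 1 probe each, 41 of 2853 rose by the slope (1.44%) and 44 fell (1.54%). The genes in this paragraph and the single genes named below in the lists were chosen after their values were seen. Gbp2, which encodes a growth-blocking peptide, a cytokine of insects, had 2.11 and 2.30 at 25 d and 2.43 and 2.34 at 30 d in old males, against 0.10, 0.43, 0.94 and 1.79 at 3, 5, 10 and 15 d in young males. It rose by 1.65 ± 0.18 per 20 d (limma, adjusted p = 7.7e-04), with each young array higher than the one of the age before. CG5953 rose by 2.64, CG16926 by 1.92, CG7953 by 1.92, CG10912 by 1.71, CG4377 by 1.65 and CG7611 by 1.64. Ssk, a protein of the smooth septate junctions of the gut, rose by 1.58, Dtg by 1.55 and Mov10, an RNA helicase gene, by 1.50. Cpr49Ae, a cuticle protein gene, fell by 1.66 per 20 d, Sgp by 1.63, ocm by 1.51, CG16904 by 1.42, CG10513 by 1.30 and CG16820 by 1.26. vir-1, an RNA induced by virus infection, rose by 1.30, and pst (pastrel), a gene of resistance to virus, by 1.04. AkhR, the receptor of adipokinetic hormone, rose by 1.03 and Atg3, an autophagy gene, by 0.67. Among the genes of this paragraph, CG7953, vir-1, AkhR and Atg3 lost the call in most fits with 1 array left out.

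Most muscle genes had less RNA in old males. Of 13 genes of the muscle structure list, 11 had a difference below 0, against 56% of the 2828 named genes tested, and the median was -0.59, against -0.06 for all named genes. In 6 of the 13 all old arrays lay below all young arrays (5.94% of named genes), and 5 had an unadjusted p under 0.05 (8.49% of named genes). By the slope Scp1, Argk1 and Mf fell. Argk1, the arginine kinase that buffers ATP in muscle, had -0.50, -0.37, -0.28 and -0.01 in old males, against 1.11, 0.93, 0.46 and 0.27 in young males. The groups did not overlap, and it fell by 1.01 ± 0.20 per 20 d (limma, adjusted p = 0.0198). Mf (myofilin, a thick filament protein) fell by 0.67 per 20 d (limma, adjusted p = 0.0491), a call that was lost in 9 of 10 fits with 1 array left out. Prm (paramyosin) differed by -0.55 and Zasp66, of the Z-disc, by -0.62 between the windows, and neither passed. Members above 0 were Zasp52 at 0.40 and bt (projectin) at 0.26. The Strn-Mlck probe read for the list differed by -0.37 and did not pass by either fit. Another probe of that gene differed by 1.31 and rose by 1.33 per 20 d (limma, adjusted p = 0.0223). The mean over 11 muscle genes was -0.38 ± 0.12 (SD, n = 4) in old males and 0.36 ± 0.35 (SD, n = 4) in young males. On the first day of adult life this mean was 1.19, and the young arrays had 0.76, 0.56, 0.09 and 0.04 at 3 to 15 d. A single member with a wide gap, such as Scp1 at -3.70, can move a mean. The medians over the same genes were closer, at -0.381 to 0.148 on the old arrays and 0.265 to 0.753 on the young arrays.

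Genes of energy metabolism lay mostly below 0 in old males, with no member passing between the windows. All 7 genes of the tricarboxylic acid (TCA) cycle list had a difference below 0 (median -0.39), as had 8 of 9 glycolysis and sugar storage genes (median -0.46) and 4 of 5 genes of mitochondrial respiration (median -0.45), against 56% of named genes. At an unadjusted p under 0.05 in limma, 2 TCA, 3 glycolysis and 1 respiration gene were lower, against 8.49% of named genes. By the slope ATPsynO, a subunit of the mitochondrial ATP synthase, and the glycolysis list members Hex-t2 and Ald1 fell. ATPsynO had 0.44, 0.44, 0.62 and 0.10 in old males, against 2.07, 1.28, 1.11 and 0.68 in young males. It fell by 1.01 ± 0.20 per 20 d (limma, adjusted p = 0.0198), with the array of 3 d highest. Ald1, the glycolytic aldolase, fell by 0.79 per 20 d (limma, adjusted p = 0.0244), while a second Ald1 probe had a slope of -0.02 and did not pass. Idh3b, a subunit of isocitrate dehydrogenase, differed by -0.64, ScsbetaA, of succinyl-CoA synthetase, by -0.55 and Tpi, triose phosphate isomerase, by -0.59, without passing. The mean of 9 glycolysis genes was 0.99 ± 0.13 (SD, n = 4) in old males and 1.46 ± 0.12 (SD, n = 4) in young males, and the highest old array (1.15) was below the lowest young array (1.35). These means include the testis hexokinase Hex-t2, and the medians over the same genes overlapped, at 0.89 to 1.37 on the old arrays and 1.18 to 1.58 on the young arrays.

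**Figure D2:**
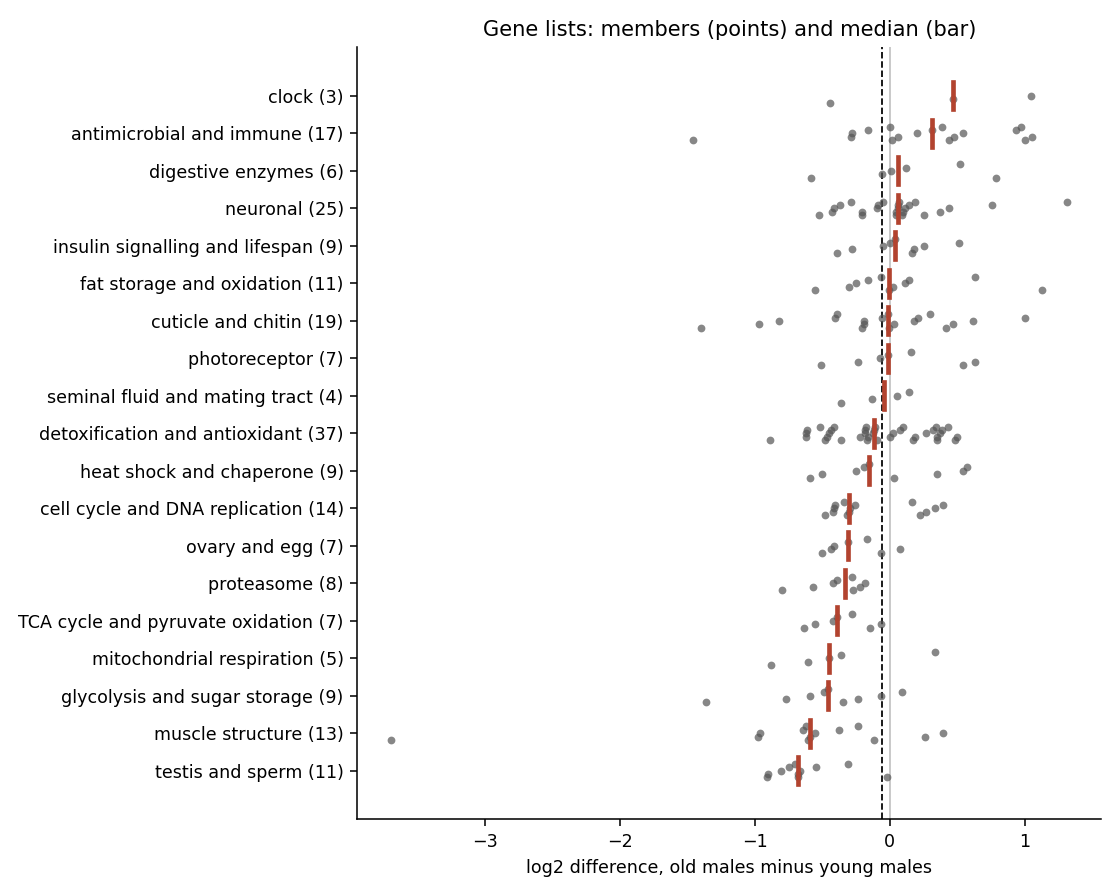
Log2 difference of old minus young males (horizontal) for the members of each gene list with more than 2 members tested, 1 point per gene, a red bar at the list median and a dashed line at the median of all named genes (-0.06). The testis (-0.68) and muscle (-0.59) lists have the lowest medians and the clock (0.47) and immune (0.31) lists the highest.

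Immune genes lay on both sides of 0, more of them above. Of 17 members of the antimicrobial and immune list, 13 had a difference above 0, against 44% of named genes, and the median was 0.31. Between the windows 6 were higher (5.34% of named genes) and PPO1 lower at an unadjusted p under 0.05, and in 1, Rel, all old arrays lay above all young arrays (3.43% of named genes). By the slope Rel, SPE and Irc rose and PPO1 fell. Rel, the NF-kB factor of the Imd pathway, had 1.79, 1.66, 1.74 and 1.30 in old males, against 0.08, 0.23, 0.76 and 1.18 in young males. All old arrays were above the young ones, and Rel rose by 1.09 ± 0.20 per 20 d (limma, adjusted p = 0.0156). SPE, the protease that cleaves the Toll ligand Spätzle, had 2.44, 3.03, 2.77 and 2.62 in old males, against 0.99, 1.46, 1.97 and 2.53 in young males. One old array lay below the 15 d array, and SPE rose by 1.12 ± 0.22 per 20 d (limma, adjusted p = 0.0197). Irc, an immune-regulated catalase, rose by 1.12 per 20 d (limma, adjusted p = 0.0298). NimB1, of the nimrod family of blood cell genes, differed by 0.93 and Spn77Ba, a serpin of melanization in the tracheae, by 0.54, and neither passed. The genes of the antimicrobial peptides themselves are not analysed here, so the list speaks of receptors, regulators and blood cell genes.

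The 11 testis and sperm genes tested were all below 0 in old males (56% of named genes), with a median of -0.68, the lowest of the lists with at least 3 members. At an unadjusted p under 0.05, 4 were lower (8.49% of named genes), and 0 passed the adjusted test in limma between the windows or by the slope. soti, a gene of the last steps of sperm formation, had 2.57 and 2.36 at 25 d and 2.24 and 2.08 at 30 d in old males, against 3.21, 4.00, 3.08 and 2.58 at 3, 5, 10 and 15 d in young males. Its old arrays were all below the young ones, the closest by under 0.01, and its difference was -0.91 ± 0.27 (limma, adjusted p = 0.22, and 0.0505 by the slope). vrs differed by -0.68, hmw by -0.80 and exu, which also localises RNA in the ovary, by -0.91. The 3 probes of orb2 disagreed in size, with differences from -0.71 to -0.02. Hex-t2, the testis hexokinase counted above with glycolysis, had 2.58, 2.98, 2.10 and 1.71 in old males, against 3.53, 4.65, 3.09 and 3.54 in young males. It fell by 1.46 ± 0.34 per 20 d (limma, adjusted p = 0.0409), a call lost in 6 of 10 fits with 1 array left out. The mean of 9 testis genes was 2.01 ± 0.24 (SD, n = 4) in old males and 2.62 ± 0.51 (SD, n = 4) in young males, and the array of 5 d stood highest at 3.37. The ranges overlapped, with 25 d replicate 2 at 2.33 and the array of 3 d at 2.29.

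Seminal fluid genes had a median near 0. Their 4 tested members had a median of -0.04, 2 above and 2 below 0, and a mean level of 1.74 ± 0.11 (SD, n = 4) in old males and 1.81 ± 0.06 (SD, n = 4) in young males. Acp36DE, a seminal fluid protein needed for sperm storage in the female, had 4.34, 3.88, 3.90 and 3.83 in old males, against 5.02, 4.21, 4.05 and 4.11 in young males. The ranges overlapped and the difference was -0.36 ± 0.24 (limma, adjusted p = 0.53). Outside the list, scpr-B, a gene of a family of secreted cysteine-rich proteins, fell by 1.05 ± 0.17 per 20 d (limma, adjusted p = 0.0092). It had 3.92, 4.13, 3.79 and 3.93 in old males, against 5.08, 5.36, 4.79 and 4.38 in young males, with no overlap.

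**Figure D3:**
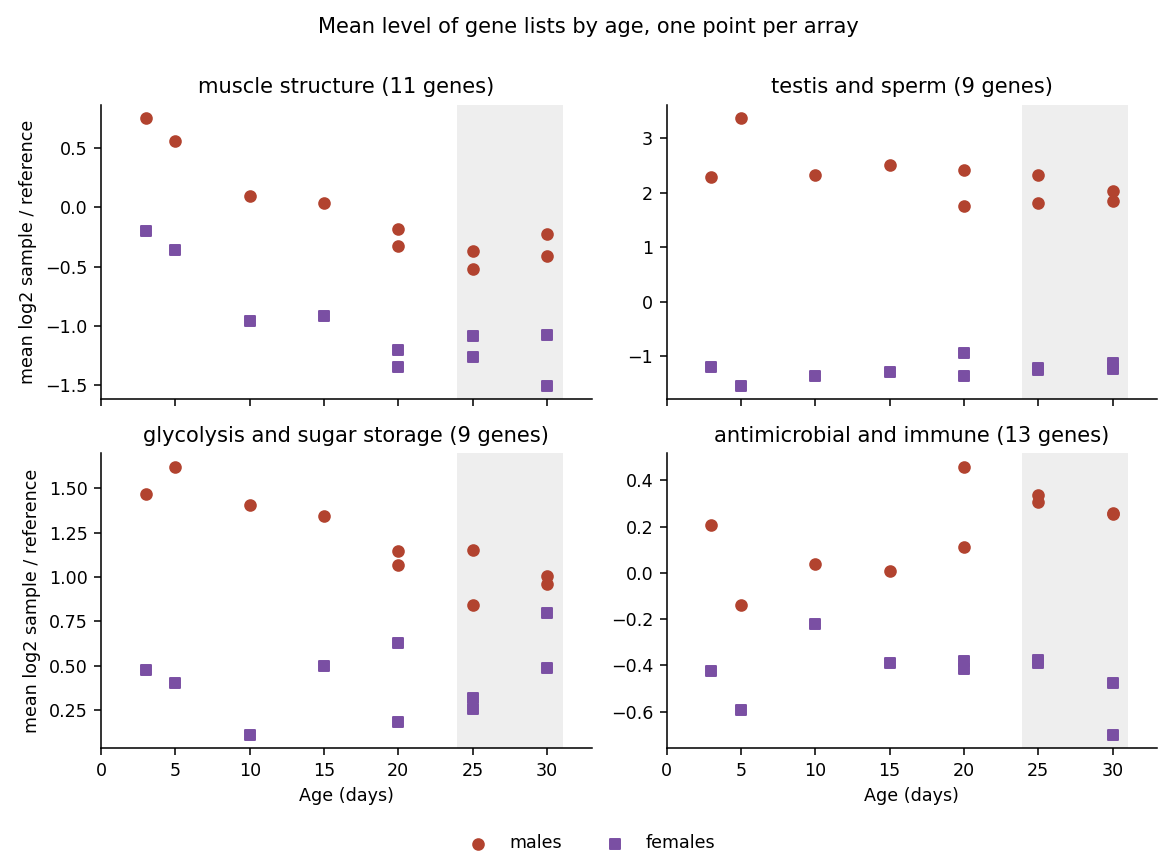
Mean log2 ratio over the genes of a list (vertical) by age in days (horizontal), 1 point per array, for males and for females of the same slide set, with the ages of the old group shaded. In males the muscle mean is -0.38 in the old group and 0.36 in the young group, and the testis genes lie above 1.8 in males of both groups and below -1.1 in females of those groups.

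All 8 proteasome genes were below 0 (56% of named genes), with a median of -0.34. Of these, 2 had an unadjusted p under 0.05 (8.49% of named genes), Prosalpha5 at -0.80 and Prosalpha1 at -0.42. The 2 ribosomal protein genes tested were above 0, RpL28 at 0.55 and RpLP1 at 0.43, and RpL28 rose by 0.62 per 20 d (limma, adjusted p = 0.0371), a call lost in 6 of 10 fits with 1 array left out. Of 3 clock genes, tim differed by 1.05 and Pdp1 by 0.47, each at an unadjusted p under 0.05, and cry by -0.44. None of these 3 passed by either fit, tim having an adjusted p of 0.0543 by the slope (limma). Neuronal genes had a median of 0.06 over 25 members. Nrx-1 (neurexin, a synaptic adhesion protein) rose by 0.86 per 20 d (limma, adjusted p = 0.0178), while another of its probes had a slope of 0.21 and did not pass. hig, a synaptic protein gene outside the list, rose by 0.87, a call lost in 8 of 10 such fits. Arc1, a synaptic gene with a capsid-like protein, had 1.79 and 2.05 at 25 d and 4.07 and 4.27 at 30 d in old males, against 1.60, 2.09, 1.19 and 2.02 in young males. Only the arrays of 30 d stood apart, and the slope did not pass.

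The fat storage and oxidation genes had a median of -0.01 over 11 members, of which apolpp rose. apolpp, the precursor of the lipophorins that carry lipid in the haemolymph, had -3.05, -2.38, -1.97 and -2.07 in old males, against -3.78, -3.77, -3.25 and -3.19 in young males, and rose by 1.24 ± 0.21 per 20 d (limma, adjusted p = 0.0108). Lsd-1, a lipid droplet perilipin, differed by 0.63 without passing. The cuticle and chitin list had a median of -0.01 over 19 members, of which Cpr49Ae and obst-A, a chitin-binding protein gene, fell. In Cpr49Ae the level on the first day of adult life was 2.31, the young arrays had -1.07, -2.55, -3.35 and -3.60 at 3 to 15 d, and all old arrays were below -3.8. The detoxification list had a median of -0.12 over 37 members, 16 above and 21 below 0, with Cyp305a1 at -0.89. The heat shock list had -0.15 over 9, 4 above and 5 below 0, with Hsp27 at -0.59. The mean of 6 heat shock genes was 0.48 in old and 0.30 in young males, the other direction from the median. The cell cycle list had -0.30 over 14, 5 above and 9 below 0, with Bub1 and CycE at -0.42 each. The ovary list had -0.31 over 7, with 1 member above 0. Insulin signalling genes had a median of 0.03 over 9 members, digestive enzymes 0.06 over 6 and photoreceptor genes -0.01 over 7, of which retinin, a lens gene, rose by 0.63 per 20 d (limma, adjusted p = 0.0347). The calls of retinin and obst-A were lost in 7 and 8 of 10 fits with 1 array left out. None of these members passed between the windows.

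A second set of slides, on which replicate 1 of the young ages was run and which none of the tests above used, gave the same ages from other arrays. There, each probe was described by its mean at 10 and 15 d minus its mean at 3 and 5 d in males. Of the 111 probes with values that rose by the slope, 77.5% were above 0 on these arrays, and of 96 that fell, 88.5% were below 0. Over all probes tested 44.7% were above and 55.3% below. Of the probes higher in old males at an unadjusted p under 0.05, 70.8% of 366 were above 0, and of those lower 77.9% of 470 were below. Scp1 fell with each age on these slides, with 2.47, 1.58, -0.21 and -1.35 at 3, 5, 10 and 15 d. PPO1 had -0.49, 0.11, -0.60 and -2.14, highest at 5 d, so its lower level rests mainly on the array of 15 d. Mec2, at 1.30, 1.44, 1.98 and 0.87, was highest at 10 d and lowest at 15 d there. Levels on the 2 sets of slides are offset for many probes, so only the order within a set was read.

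The probes lower in old males were often those with more RNA in males than in females. The sexes were compared at 3 to 15 d on the second set of slides, with 4 arrays of each, and 22.3% of 6796 probes passed as higher in males and as many as higher in females (limma, adjusted p under 0.05). Among the probes lower in old males at an unadjusted p under 0.05, 46.1% of 475 were higher in males and 10.9% higher in females, against 21.9% and 22.6% of all probes tested between the windows. Among the probes higher in old males, 10.7% of 374 were higher in males and 18.2% higher in females. Of 96 probes that fell by the slope, 43.8% were higher in males and 5.21% in females, and of 115 that rose, 12.2% were higher in males and 7.83% in females. Hex-t2, scpr-B and CG3092 were among the genes higher in males, by 5.76, 6.56 and 5.44 on the log2 scale, while PPO1 (0.46) and Scp1 (0.51) did not pass between the sexes.

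**Figure D4:**
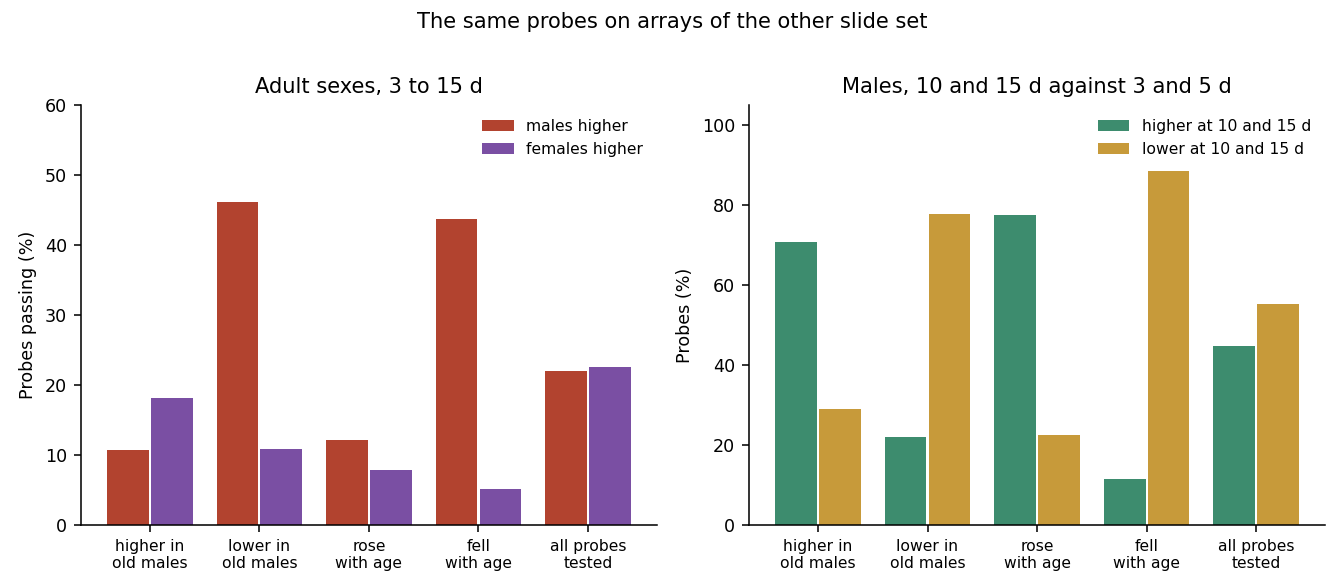
Share of probes (vertical, percent) in each set of probes named below the bars, read on the second set of slides: left, probes that passed as higher in males or in females of 3 to 15 d; right, probes above or below 0 in males of 10 and 15 d minus 3 and 5 d. Of the probes lower in old males 46.1% were higher in males, and of those that fell with age 88.5% were below 0 between the young ages.

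Females of the same ages, run mostly on the same slides, showed part of these differences. Of the probes higher in old males at an unadjusted p under 0.05, 74.1% had a difference of old minus young females above 0, and of those lower 56.2% were below 0. Of the probes that rose in males by the slope, 89% were above 0 in females, and of those that fell 69.8% were below 0, beside 53.2% above and 46.8% below for all probes tested between the windows. Male and female arrays of an age mostly share a slide, so these shares are no independent check. Scp1 differed by -3.70 in males and -3.13 in females, PPO1 by -1.46 in males and -1.16 in females, and Spn88Eb by 2.14 in males and 1.78 in females. CG8560 was lower in old females by 2.91 ± 0.37 (limma, adjusted p = 0.0026), 1 of 3 probes (0.0381%) that passed as lower in old females. The female tests took their spread from the arrays of both sexes, so their p-values do not speak of the spread among females alone. The male test between the windows used male arrays only. With the spread taken from both sexes, 33 probes passed in males in place of 5, so the female and male counts are not alike. For Mec2 the female difference was 0.49 ± 0.29 (limma, adjusted p = 0.58). It was -0.09 for CG30281, -0.11 for Gagr and 0.13 for CG4716. The testis list had a median of 0.12 in females and a median male minus female change of -0.85, against -0.07 for all named genes. The mean of 9 of these genes was low in females at all these ages (-1.54 to -1.12). Little fall could show there, and the -0.85 mainly restates the difference in males. The muscle list had -0.35 in females, the glycolysis list 0.09 and the immune list 0.07. The difference between the sexes itself passed for 0 of 7877 probes (limma; 580, or 7.36%, at an unadjusted p under 0.05), so none of these contrasts between males and females is shown for a single gene. For Mec2 the male minus female change was 1.59 ± 0.40 (limma, adjusted p = 0.43) and for Rel 1.38 ± 0.42 (limma, adjusted p = 0.59).

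**Figure D5:**
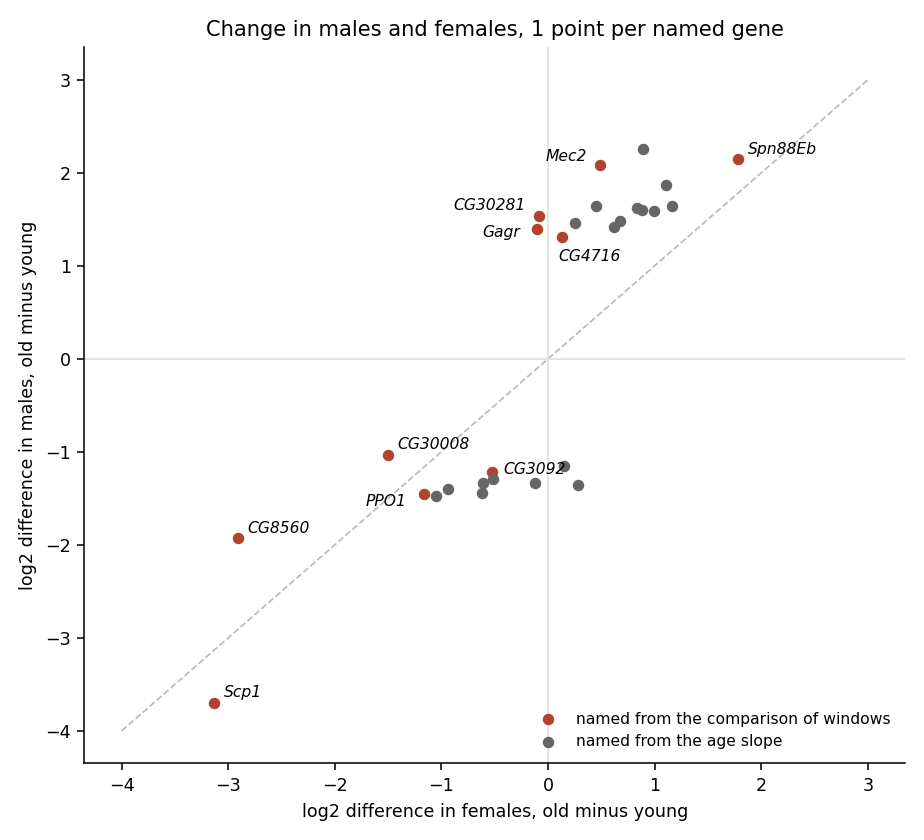
Log2 difference of old minus young in males (vertical) and in females (horizontal), 1 point per gene named from the comparison of windows (red, labelled) or from the slope (grey), with a dashed line where both sexes are equal. Scp1, CG8560 and Spn88Eb lie far from 0 in both sexes, while Mec2 has 2.08 in males and 0.49 in females, and CG30281, Gagr and CG4716 lie near 0 in females.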

How the data were processed

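Whole wild-type males were profiled on 2-colour cDNA arrays against a common reference RNA, and the authors deposited log2 ratios, a unit read from the values, which take both signs. Per the labels' protocols total RNA was isolated with Trizol, poly(A)+ RNA was extracted from it, and slides were read on a GenePix scanner as red over green. How background, spot filtering and normalization were handled before deposit is not given in the sources used here, nor is the spot signal, so the precision rests on the number of arrays.

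Each array was centred on its median, and values above 16, near the top of the deposited range (0 to 7 per array), were treated as missing. The deposited medians of the 8 arrays ran from -0.45 to 0.11, and 32.1 to 38.1% of probes had no value. Gene names came from the platform annotation and were updated with RefSeq gene identifiers. A single gene was given for 4137 probes, several for 159 and none for 8292. Of several probes of a gene, the one measured on most arrays was read. No coordinates or sequences are printed, because no genome build or sequence table was used here.

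Models were fitted in R 4.3.3, with version 1.17.8 of data.table, by lmFit and eBayes of limma 3.58.1, two-sided, with Benjamini-Hochberg adjustment over all probes tested and a threshold of 0.05, for probes with a value on at least 80% of the arrays of a fit. The code was tested on simulated data. The slope used age in days over 10 arrays and is given per 20 d. Old and young females, and the difference between the sexes, were tested with the spread taken from the arrays of both sexes. Groups came from the array titles, which were kept where the scan comment of 25 d replicate 1 or 20 d replicate 1 gives another replicate number. Genes were named as the 12 largest increases and decreases among passing probes or, as fewer than 5 passed, the 5 genes of smallest p in each direction, with up to 3 passing members of each list. Lists are described by counts and medians, with no test. The members and lists were chosen with earlier results of these data known. Alternatives covered centring, normalization, missing values, the ages in each group, the bracketed number, a replicate block and single arrays left out.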

Additional observations from a re-analysis of the deposited data

Results flagged for a closer look

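In 11 of 198 groups of 4 arrays examined, 1 array stood apart from the other 3, its gap to the nearest being over 0.829 of the range, and chance gives this in about 1 in 20 groups. The array of 15 d stood apart from the other young males for CG4716 (2.50, towards the old arrays), CG16820 (0.78, towards them) and CG30427 (0.28, towards them). The array of 3 d did so for fln (-1.51), a flight muscle gene, and for Acp36DE (5.02), and that of 5 d for Dtg (-2.05) and for the mean of the digestive enzymes (0.22). Among old males, 30 d replicate 1 stood apart for Dtg (1.11), 30 d replicate 2 for Idgf1 (0.71), and 25 d replicate 1 for Acp36DE (4.34) and for the digestive enzymes (0.72).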

How the results depend on the processing

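Between the windows 5 probes passed, and the count moved to 18 without centring, 29 with quantile normalization (24 higher, 5 lower), 27 with values on every array, 33 with the spread taken from both sexes, 12 with the young arrays of the second slide set added, 253 with the slope, 96 with only 3 and 5 d as young, and to 0 with only 10 and 15 d as young, with only 25 d or only 30 d as old, or with the arrays numbered 25. All 5 were among those without centring, with quantile normalization, with values on every array, with both sexes and by the slope. With the young arrays of the second slide set added, only 3 of the 5 passed, and PPO1 did not. Over all 16 settings apart from single arrays left out, PPO1 lost its call in 7 and Mec2 in 6. The number in brackets as a term, added after the data were examined, left 1. Leaving out 1 array gave 0 to 52 probes, as listed above, with PPO1 at -1.57 to -1.34 and Mec2 at 1.84 to 2.34. For the slope (253) the bracketed number as a term gave 137, of which 108 were among the 253, and leaving out 1 array gave 69 to 244. Without centring it gave 170, 143 higher and 27 lower, against 145 and 108, with the median over all probes at 0.09 in place of -0.05. The replicate block gave 0 probes between the windows (619 at an unadjusted p under 0.05 in limma) and 169 by the slope: all young arrays are replicate 2, so the numbers pair nothing across the groups. For the difference between sexes the count was 0, except 1 with the arrays numbered 25, and leaving out 1 array gave 0 to 0, as for 20 d. Of the genes named here Strn-Mlck changed direction, to 0.47 with its probes averaged. Over 24 alternatives the medians of the muscle (-0.80 to -0.29), testis (-0.90 to -0.39), glycolysis (-0.65 to -0.26), TCA, respiration, proteasome and immune (0.18 to 0.45) lists kept their sign, while those of the cuticle, photoreceptor, fat, neuronal, seminal fluid, digestive, detoxification, heat shock and ovary lists turned in at least 1. Why counts moved was not tested. With 4 arrays a group, a median standard error of 0.22 limits what can pass.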
